A study of Homo sapiens with 15 samples.

Results

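The splicing regulators described here are the 73 genes whose symbols in the platform's probe-to-gene table belong to 5 families. They are 4 CLK kinases, 2 L-type cyclins (CCNL1 and CCNL2), 10 SR proteins (SRSF), 21 HNRNP genes and 36 RBM genes, out of 14884 named genes on the array. They were taken by symbol alone, with 4 pseudogenes left out, and the probe set with the highest mean over all arrays stood for each gene. Only RBM12B had more than 1 probe set.

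Total RNA of HEK293T cells, a transformed line from human embryonic kidney, was hybridised to 15 Affymetrix arrays in 5 groups of 3. The groups had received an siRNA against LOC550643, which encodes the P-body peptide NoBody, against Dcp2, the mRNA decapping enzyme, against DcpS, the scavenger enzyme that destroys cap remnants, or against GAPDH, a glycolytic enzyme, and a group with a non-silencing siRNA. All of them, the non-silencing cells included, were treated with actinomycin D, which blocks transcription, at 1 ug/mL for 4 hours starting 48 hours after transfection. Each value therefore combines how much of a transcript a population of transfected cells held before the drug with how fast it decayed, and these cannot be told apart here. Likewise, fewer cells with a transcript and less of it per cell give the same value. Values are probe set summaries on a log2 scale, and every change below is a difference of group means in log2 units. The knockdown of LOC550643 and of DcpS is not analysed here, because neither gene had a named probe set.

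SR proteins bind exonic enhancers and recruit the spliceosome, whereas many hnRNP proteins bind silencers and oppose exon inclusion. CLK kinases phosphorylate SR proteins and release them from nuclear speckles, and the L-type cyclins partner the CDK11 kinases, which also act on splicing factors. RBM genes are a loose family defined by an RNA recognition motif, with members in the spliceosome, in nuclear RNA decay and in ribosome assembly. Many SR and hnRNP genes control their own mRNA through exons that trigger nonsense-mediated decay, and CLK1 and CLK4 transcripts are known to be held in the nucleus with introns retained. An array value per gene does not separate such isoforms.

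The targeted transcripts fell where they were measured. DCP2 averaged 6.34 ± 0.10 with its own siRNA, against 8.14 ± 0.13 with the non-silencing siRNA, and GAPDH 5.97 ± 0.24 with its own siRNA, against 7.20 ± 0.10 (SD, n = 3 each). DcpS siRNA lowered DCP2 as well, to 7.60 ± 0.27 (change -0.54, limma adjusted p = 0.0252). Array medians lay between 4.01 and 4.08, and no arrays held identical values. Of the HEK293T markers, 3 of 6 were measured. IRS4 averaged 8.90, VIM 8.08 and PAX2 5.65. IRS4 fell with Dcp2 siRNA, at 8.27 ± 0.19 against 9.44 ± 0.37 in the non-silencing arrays (change -1.18, limma adjusted p = 0.0307), and the summed level of the 3 markers ran from 21.6 to 22.2 with Dcp2 siRNA and from 22.6 to 24.0 with the non-silencing siRNA. Among markers of other cell types, fibroblast (DCN, LUM), endothelial (PECAM1, VWF), hepatocyte (ALB) and keratinocyte (KRT5) genes averaged below 4.04, the median of all probe sets. APOA1 (4.98), KRT14 (4.36) and the macrophage and lysosome marker CD68 (6.65) averaged above it. CD68 was the 1 blood marker of 5 that was measured. It rose with GAPDH siRNA by 1.10 and with Dcp2 siRNA by 0.47 (limma adjusted p = 3.60e-05 and 0.0349). CD68 was also called in 5 of the 6 direct comparisons, with 0.40 for LOC550643 minus DcpS, -0.90 for LOC550643 minus GAPDH, 0.67 for Dcp2 minus DcpS, -0.64 for Dcp2 minus GAPDH and -1.31 for DcpS minus GAPDH. Of the HEK293T markers, IRS4 was 1.13 higher with LOC550643 than with Dcp2 siRNA, and VIM was lower with DcpS than with GAPDH siRNA (change -0.59). The part of these marker differences in the results on splicing regulators was not tested.

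Promoter windows of 5 of the genes that the results turn on are printed here, because CLK1, CLK4 and CCNL1 moved together from array to array, while SRSF7 and SRSF3 differed between siRNAs. Each runs from 250 bases before to 50 after the start of the gene, 5′ to 3′ on the strand of the gene, as given by RefSeq on GRCh38.p14. CLK1 lies at chr2:200864609-200864908 (minus strand), CLK4 at chr5:178627001-178627300 (minus strand), CCNL1 at chr3:157160098-157160397 (minus strand), SRSF3 at chr6:36594112-36594411 (plus strand) and SRSF7 at chr2:38751445-38751744 (minus strand). CLK1 and SRSF7 have other windows in the table, which are not shown. Capitals mark matches to TGACG, the core of the cyclic AMP response element, on either strand (TGACG or CGTCA).
CLK1: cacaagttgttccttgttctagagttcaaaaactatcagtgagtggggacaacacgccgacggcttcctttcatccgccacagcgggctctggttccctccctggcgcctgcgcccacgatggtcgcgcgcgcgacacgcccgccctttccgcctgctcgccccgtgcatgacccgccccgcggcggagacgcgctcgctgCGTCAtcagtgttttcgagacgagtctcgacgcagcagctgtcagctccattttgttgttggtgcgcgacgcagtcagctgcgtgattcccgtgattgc
CLK4: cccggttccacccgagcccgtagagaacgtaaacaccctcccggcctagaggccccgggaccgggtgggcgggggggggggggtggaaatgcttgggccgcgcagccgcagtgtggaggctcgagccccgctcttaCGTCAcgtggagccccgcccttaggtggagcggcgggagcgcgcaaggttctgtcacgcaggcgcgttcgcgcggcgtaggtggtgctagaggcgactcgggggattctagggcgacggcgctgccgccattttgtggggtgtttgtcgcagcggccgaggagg
CCNL1: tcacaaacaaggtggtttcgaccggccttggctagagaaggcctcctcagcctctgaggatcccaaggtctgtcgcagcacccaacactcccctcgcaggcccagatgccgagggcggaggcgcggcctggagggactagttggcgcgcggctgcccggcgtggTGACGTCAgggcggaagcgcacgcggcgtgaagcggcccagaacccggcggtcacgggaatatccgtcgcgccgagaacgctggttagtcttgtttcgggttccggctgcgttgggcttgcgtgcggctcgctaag
SRSF3: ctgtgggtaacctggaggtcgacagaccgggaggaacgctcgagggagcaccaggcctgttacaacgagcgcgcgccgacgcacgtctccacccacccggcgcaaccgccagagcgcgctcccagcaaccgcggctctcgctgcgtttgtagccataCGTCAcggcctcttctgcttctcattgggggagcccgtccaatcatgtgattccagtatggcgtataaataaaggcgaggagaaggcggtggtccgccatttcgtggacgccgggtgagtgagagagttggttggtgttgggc
SRSF7: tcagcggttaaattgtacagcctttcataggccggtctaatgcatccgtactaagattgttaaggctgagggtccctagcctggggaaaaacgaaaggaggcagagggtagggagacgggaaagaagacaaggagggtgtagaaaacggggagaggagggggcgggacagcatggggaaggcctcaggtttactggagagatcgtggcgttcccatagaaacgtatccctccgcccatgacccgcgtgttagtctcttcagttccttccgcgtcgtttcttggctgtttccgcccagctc
Counted from the start of the gene, the match in CLK1 began at -49 and that in CLK4 at -114. CCNL1 held an overlapping pair, at -86 and -83, which together spell the palindrome TGACGTCA. The match in SRSF3, a gene without the shared movement of the other 3, began at -93, and the SRSF7 window held none of these letters. RefSeq windows were found for 67 of the 73 genes. TGACG occurred in 31 of their 88 windows (35.2%) and in 24.6% of all 35116 windows of the same length, and TGACGTCA in 4 of 88 (4.55%) and in 1.85% of all. A match is a description of the letters and not evidence of a bound site. The printed genes were picked for the patterns named above. Other members that also moved from array to array, such as CLK3, HNRNPA1 and RBM15, are not printed. The windows therefore cannot show whether the letters go with the shared movement.

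Against the non-silencing siRNA, few splicing regulators differed by more than the spread between arrays allows to be called. SRSF12, an SR-related protein that represses splicing, fell with DcpS siRNA and was the only gene called at an adjusted p under 0.05 in the fit without pairing. LOC550643, Dcp2 and GAPDH siRNA gave no called gene. The range of the 73 changes was -0.26 to 0.79 with LOC550643, -0.47 to 0.66 with Dcp2, -0.57 to 0.43 with DcpS siRNA, and -0.63 to 0.58 with GAPDH siRNA. These 4 comparisons share the non-silencing arrays.

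The counts were 0 of 73 with LOC550643 siRNA, where limma called 1.57% of all genes, 0 of 73 with Dcp2 (1.98% of all genes), 1 of 73 with DcpS (3.61%) and 0 of 73 with GAPDH siRNA (2%). At an unadjusted p under 0.05 the numbers were 12, 14, 13 and 9 of 73, or 16.4%, 19.2%, 17.8% and 12.3%, beside 12.5%, 16.3%, 16.1% and 13.6% of all genes in the same order of siRNAs. The median change of the 73 genes was 0.07 with LOC550643 and 0.11 with Dcp2 siRNA, with 49 and 50 genes on the positive side, and lay at -0.00 with both DcpS and GAPDH siRNA, with 36 positive in each. The median of all genes lay between -0.01 and 0.00. The limma 95% intervals for a member were about 0.50 wide (median 0.499 from end to end). A change smaller than the distance from the middle of its interval to either end could not be separated from no change. A moderated F test over all 5 groups called 6 of 73 (8.22%), below its 12.2% over all genes. The 6 were SRSF12, SRSF7 and SRSF3 of the SR proteins and RBM19, RBM12B and RBM27.

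**Figure D1:**
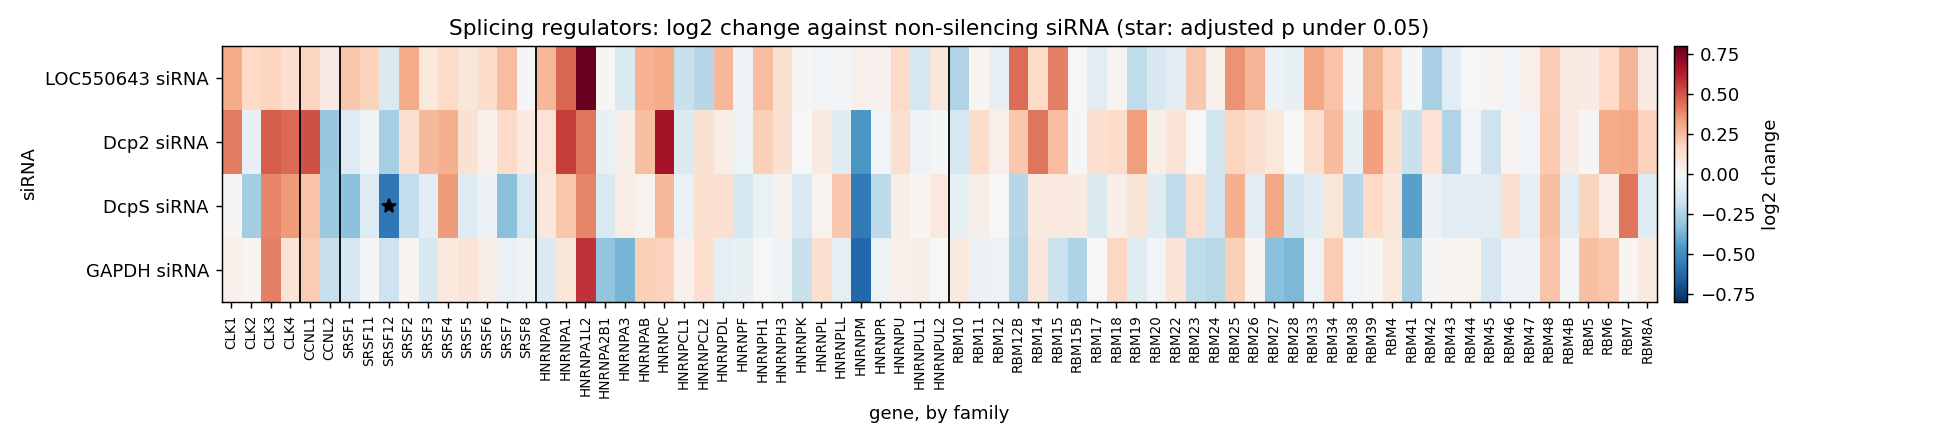
Log2 change of each of the 73 splicing regulators (columns, by family) with LOC550643, Dcp2, DcpS and GAPDH siRNA (rows) against the non-silencing siRNA, red for higher and blue for lower, with a star at an adjusted p under 0.05. SRSF12 with DcpS siRNA carries the 1 star, and HNRNPM is blue in 3 rows, at -0.47, -0.57 and -0.63.

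None of the CLK kinases and L-type cyclins was called against the non-silencing siRNA, although the change of CCNL1 with Dcp2 siRNA reached 0.51. CLK1 read 6.58, 6.65 and 6.90 in the LOC550643 siRNA arrays, 6.92, 6.93 and 6.65 with Dcp2 siRNA, 5.82, 6.41 and 7.06 with DcpS siRNA, 6.34, 6.19 and 6.84 with GAPDH siRNA, and 5.87, 6.64 and 6.74 in the non-silencing arrays. The first DcpS and first non-silencing arrays were the lowest of the 15 and the third DcpS array the highest, so every group overlapped the non-silencing arrays. Its changes against the non-silencing siRNA were 0.29 (95% interval -0.27 to 0.86) with LOC550643, 0.42 (-0.15 to 0.99) with Dcp2, 0.01 (-0.56 to 0.58) with DcpS, and with GAPDH 0.04 (-0.53 to 0.61). CCNL1 behaved alike. It read 7.81, 7.93 and 8.37 with LOC550643 siRNA, 8.44, 8.57 and 8.11 with Dcp2, 7.41, 8.29 and 8.58 with DcpS, 7.85, 7.82 and 8.53 with GAPDH, and 7.43, 8.12 and 8.05 with the non-silencing siRNA. Again the first DcpS and non-silencing arrays were lowest, and the Dcp2 siRNA arrays overlapped the non-silencing ones by 1 array. The CCNL1 change with Dcp2 siRNA was 0.51 (95% interval -0.07 to 1.09, limma adjusted p = 0.384).

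CLK4 read 5.72, 5.48 and 6.11 with LOC550643 siRNA, 6.14, 6.05 and 6.11 with Dcp2, 5.60, 5.85 and 6.50 with DcpS, 5.63, 5.58 and 6.03 with GAPDH, and 5.11, 5.92 and 5.90 with the non-silencing siRNA. The 3 Dcp2 arrays lay close together and above all non-silencing arrays. The first non-silencing array was far below the other pair, and the change of 0.46 (95% interval -0.04 to 0.96) was not called (limma adjusted p = 0.362). CLK3 had the largest change of the kinases. It read 8.86, 8.88 and 9.12 with LOC550643 siRNA, 9.35, 9.22 and 9.23 with Dcp2, 8.94, 9.40 and 9.18 with DcpS, 9.14, 9.10 and 9.33 with GAPDH, and 8.50, 8.78 and 9.07 with the non-silencing siRNA. All Dcp2 and all GAPDH siRNA arrays lay above the 3 non-silencing arrays, which were themselves widely spread. The changes were 0.17, 0.48, 0.39 and 0.41 with LOC550643, Dcp2, DcpS and GAPDH siRNA (limma adjusted p = 0.691, 0.0849, 0.151 and 0.183). That with Dcp2 siRNA passed the threshold without non-silencing replicate 3, at 0.63 (limma adjusted p = 0.0302).

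CLK2 and CCNL2 followed other patterns. CLK2 read 7.23, 7.13 and 7.46 with LOC550643 siRNA, 7.07, 6.98 and 7.10 with Dcp2, 6.90, 6.64 and 6.97 with DcpS, 7.06, 7.10 and 7.25 with GAPDH, and 6.89, 7.13 and 7.34 with the non-silencing siRNA. The LOC550643 siRNA arrays were all above the DcpS siRNA arrays, a difference of 0.44 (limma adjusted p = 0.0455) that was lost when any of 11 of the 15 arrays was left out, with adjusted p up to 0.179, or after quantile normalization (0.0577). CCNL2 read 8.11, 7.997 and 7.96 with LOC550643 siRNA, 7.57, 7.80 and 7.59 with Dcp2, 7.61, 7.56 and 7.81 with DcpS, 7.53, 7.83 and 7.96 with GAPDH, and 7.94, 8.12 and 7.81 with the non-silencing siRNA. Its Dcp2 and DcpS siRNA values ran below the LOC550643 siRNA values without overlap, but neither the difference from Dcp2 (0.37, limma adjusted p = 0.118) nor that from DcpS siRNA (0.36, 0.0909) was called.

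**Figure D2:**
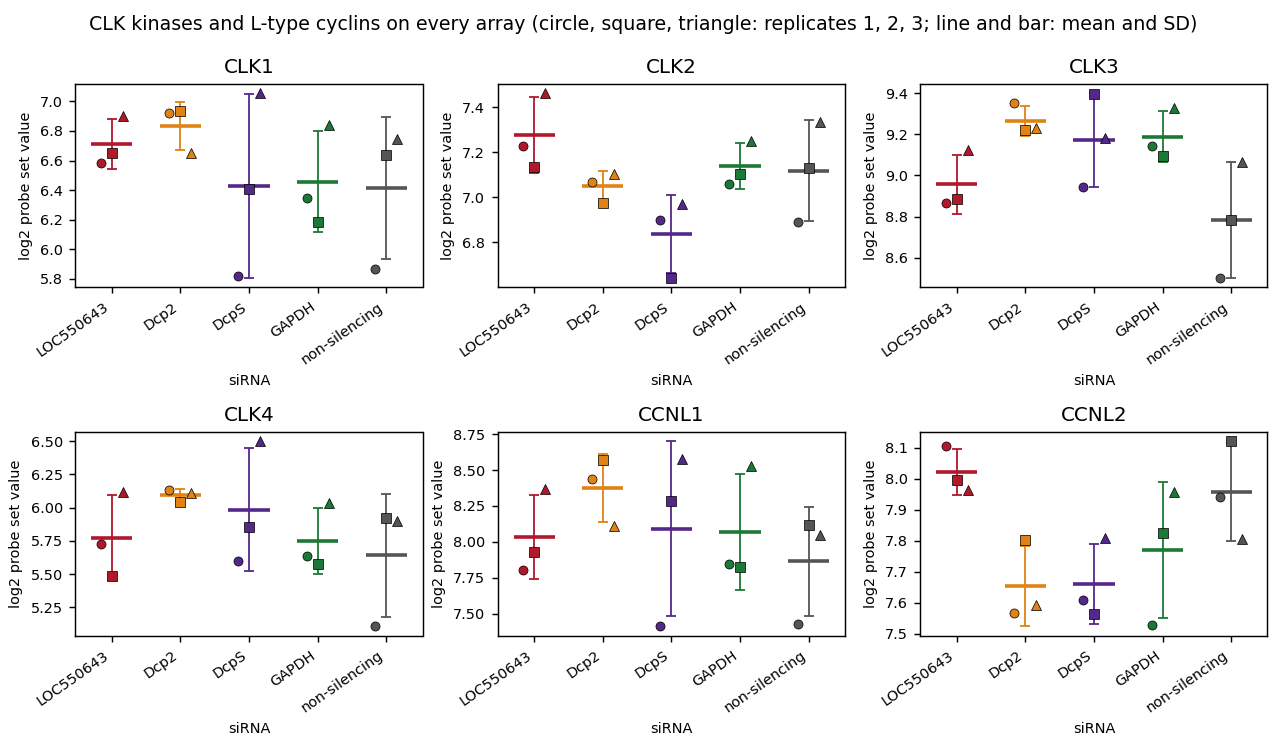
Log2 probe set value (vertical axes) of the 4 CLK kinases and 2 L-type cyclins on each of the 15 arrays, by siRNA, with LOC550643, Dcp2, DcpS and GAPDH left of the non-silencing siRNA; circles, squares and triangles are replicates 1, 2 and 3, lines are means and bars SD. CLK1 and CCNL1 lie lowest on the first DcpS (5.82 and 7.41) and first non-silencing arrays (5.87 and 7.43).

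Among the SR proteins, differences between siRNAs were clearer, and most of them set DcpS siRNA below the others. SRSF12 read 5.84, 5.65 and 6.04 with DcpS siRNA and 6.49, 6.45 and 6.31 with the non-silencing siRNA. Every DcpS array lay below every non-silencing array, and the change of -0.57 (SE 0.11, limma adjusted p = 0.00833) held when any 1 array was left out, but not in a fit to the 6 arrays alone (0.0821). The DcpS and non-silencing arrays of the same replicate number deviated together, with correlations of 0.394, 0.110 and 0.124, and with that pairing in the fit SRSF12 kept its call (0.00999). The labels give no such pairing. It was chosen from the deviations of these same arrays, so the paired p-values are no separate support. The paired fit called 3 of 73 members (4.90% of all genes), the other pair being higher with DcpS siRNA and named after their values were seen. SRSF4 read 9.51, 9.72 and 9.80 with DcpS siRNA, against 9.18, 9.44 and 9.40 with the non-silencing siRNA (change 0.34, limma adjusted p = 0.0261 paired and 0.0678 unpaired). RBM7, a subunit of a complex that brings RNA to the nuclear exosome, read 6.36, 6.57 and 6.80 with DcpS siRNA, against 6.01, 6.16 and 6.28 (change 0.43, limma adjusted p = 0.0269 paired and 0.0647 unpaired). In neither gene did the groups overlap. SRSF12 read 6.30, 6.13 and 6.48 with LOC550643, 6.07, 6.19 and 6.20 with Dcp2 and 6.22, 6.19 and 6.35 with GAPDH siRNA, so that the DcpS arrays were below those of each other group. Its changes with those 3 siRNAs were -0.12 (95% interval -0.35 to 0.12), -0.26 (-0.50 to -0.03) and -0.16 (-0.40 to 0.07), and none was called. Directly compared, SRSF12 was 0.46 higher with LOC550643 than with DcpS siRNA (limma adjusted p = 0.0230) and 0.41 lower with DcpS than with GAPDH siRNA (change -0.41, limma adjusted p = 0.0407). The first of these was lost without LOC550643 replicate 1 or 3 or DcpS replicate 1 or 2 (adjusted p up to 0.103), the second without any of 9 arrays (up to 0.162). In the comparison of DcpS with GAPDH siRNA, CD68 and VIM were called too, at -1.31 and -0.59.

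SRSF7, a zinc-knuckle SR protein that also promotes mRNA export, read 8.53, 8.79 and 8.60 with LOC550643 siRNA, 8.61, 8.52 and 8.50 with Dcp2, 7.88, 7.96 and 8.34 with DcpS, 8.31, 8.22 and 8.48 with GAPDH, and 8.29, 8.46 and 8.43 with the non-silencing siRNA. The LOC550643 and Dcp2 siRNA arrays were all above the DcpS siRNA arrays and above the non-silencing arrays, while DcpS overlapped the non-silencing arrays through replicate 3. SRSF7 was 0.58 higher with LOC550643 than with DcpS siRNA (SE 0.12, limma adjusted p = 0.00656), in all 15 fits that left out 1 array. It was 0.49 higher with Dcp2 than with DcpS siRNA (limma adjusted p = 0.0221), which was lost without any 1 of the 3 Dcp2 arrays or without DcpS replicate 1 or 2 (adjusted p 0.0519 to 0.109). Against the non-silencing siRNA the changes of SRSF7 were 0.25 (95% interval 0.00 to 0.50) with LOC550643, 0.16 (-0.09 to 0.40) with Dcp2, -0.33 (-0.58 to -0.08) with DcpS siRNA, and -0.06 (-0.30 to 0.19) with GAPDH siRNA. None of these was called, but that with DcpS siRNA passed without DcpS replicate 3, at -0.47 (limma adjusted p = 0.0291).

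SRSF3, one of the smallest SR proteins, had its highest values with Dcp2 siRNA. It read 9.64, 9.67 and 9.59 with LOC550643 siRNA, 9.80, 9.79 and 9.85 with Dcp2, 9.39, 9.34 and 9.66 with DcpS, 9.44, 9.36 and 9.47 with GAPDH, and 9.64, 9.55 and 9.46 with the non-silencing siRNA. The 3 Dcp2 arrays lay close together and above the other 12. The change against the non-silencing siRNA was 0.26 (95% interval 0.07 to 0.46, limma adjusted p = 0.156) and was not called, whereas SRSF3 was 0.35 higher with Dcp2 than with DcpS siRNA (limma adjusted p = 0.0347) and 0.39 higher than with GAPDH siRNA (0.0312). Each of these 2 calls was lost without any 1 Dcp2 array or without either of 2 arrays of the other siRNA, replicates 1 and 2 in both cases, with adjusted p between 0.0844 and 0.131. The difference from DcpS siRNA was also lost after quantile normalization or centring on array medians (0.0514 and 0.0593), and that from GAPDH siRNA after centring (0.0592). RBM19 and RBM14 likewise had all 3 Dcp2 arrays above the other 12. The share of all genes with such a separation was not computed, so this describes single genes and not the members as a set.

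Values of SRSF1 and SRSF2, named after their values were seen, followed SRSF7 between LOC550643 and DcpS siRNA. SRSF1, the founding SR protein, read 11.18, 11.11 and 11.30 with LOC550643 siRNA, against 10.39, 10.57 and 11.01 with DcpS siRNA. SRSF2, a speckle protein also known as SC35, read 9.73, 9.84 and 9.78 with LOC550643 siRNA, against 9.14, 9.13 and 9.61 with DcpS siRNA. Neither gene's groups overlapped, and in both the third DcpS array was the highest of its group, well above the other pair. The differences were 0.54 for SRSF1 and 0.49 for SRSF2 (limma adjusted p = 0.0351 and 0.0217). Both were lost without any 1 LOC550643 array or without DcpS replicate 1 or 2 (adjusted p 0.0506 to 0.153). Unlike SRSF7, neither gene was called between Dcp2 and DcpS siRNA, where the groups overlapped. Those differences were 0.22 for SRSF1 and 0.32 for SRSF2 (limma adjusted p = 0.443 and 0.139).

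Direct comparison of the targeting siRNAs thus gave most of the calls. Between LOC550643 and DcpS siRNA, 8 of 73 splicing regulators were called (10.96%), beside 6.40% of all genes, and all 8 were higher with LOC550643 siRNA, a direction in which 3.49% of all genes were called. They were CLK2, SRSF1, SRSF2, SRSF7, SRSF12, RBM12B, RBM26 and RBM41. SR proteins made up 4 of these, and 9 of the 10 SR proteins were on the positive side with a median of 0.24, beside a median of 0.11 over the 73 genes and -0.01 over all genes. SRSF4, named after its values were seen, was the exception at -0.18 (limma adjusted p = 0.333). The count of 8 changed when single arrays were left out. It was 1 without LOC550643 replicate 1 or DcpS replicate 2, 2 without DcpS replicate 1, 3 without LOC550643 replicate 2 or 3, and 5 without any of the 3 Dcp2 arrays or GAPDH replicate 1 or 2. Counts over all genes in those fits are not given here. A loss of calls common to all genes therefore cannot be told from a loss particular to the members.

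**Figure D3:**
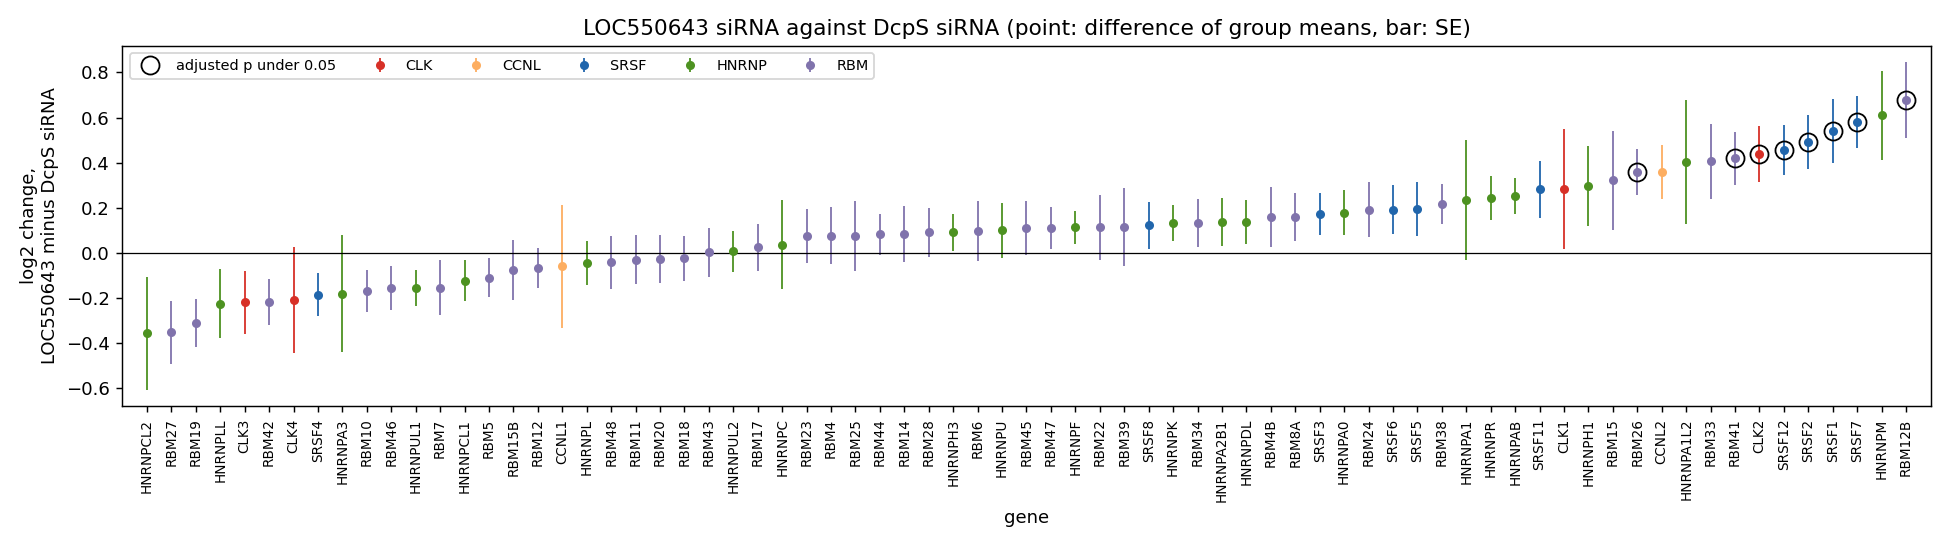
Difference of group means between LOC550643 and DcpS siRNA (vertical axis, log2, LOC550643 minus DcpS; bars are SE) for the 73 splicing regulators in order of size, coloured by family, with circles around the 8 at an adjusted p under 0.05. All 8 circles lie above 0, the highest at RBM12B (0.68), and 4 of them are SR proteins.

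The other 5 direct comparisons gave 1 or 2 called members each. LOC550643 against Dcp2 siRNA called 1 of 73 (3.20% of all genes), LOC550643 against GAPDH siRNA 2 of 73 (4.08%), Dcp2 against DcpS siRNA 2 of 73 (5.64%), Dcp2 against GAPDH siRNA 2 of 73 (2.79%) and DcpS against GAPDH siRNA 2 of 73 (5.98%). In all, 12 of 73 members (16.4%) were called in at least 1 of the 6 direct comparisons, as were 15.3% of all genes, so the share of members was close to the background. The count of 12 ran from 3 without LOC550643 replicate 1 to 13 without DcpS replicate 3, again without the counts over all genes beside it.

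Of the 36 RBM genes, RBM19, RBM12B and RBM27 passed the F test (8.33%, beside 12.2% of all genes), each with a pattern of its own. RBM19, a nucleolar protein of ribosome assembly, read 5.58, 5.77 and 5.39 with LOC550643 siRNA, 6.06, 6.06 and 6.24 with Dcp2, 5.75, 5.98 and 5.94 with DcpS, 5.70, 5.70 and 5.67 with GAPDH, and 5.65, 5.91 and 5.81 with the non-silencing siRNA. The Dcp2 siRNA arrays lay above all others. RBM19 was 0.54 lower with LOC550643 than with Dcp2 siRNA (change -0.54, SE 0.11, limma adjusted p = 0.0118), which was lost without LOC550643 replicate 1 or Dcp2 replicate 3 (0.0534 to 0.0585). The marker IRS4 was 1.13 higher in the same comparison. RBM19 was 0.43 higher with Dcp2 than with GAPDH siRNA (limma adjusted p = 0.0417). That call was lost without any of 9 arrays (up to 0.159), after quantile normalization (0.0681) and after centring on array medians (0.0621). The change of RBM19 with Dcp2 siRNA against the non-silencing siRNA was 0.33 (95% interval 0.10 to 0.56, limma adjusted p = 0.120), again without overlap.

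RBM27, which works with the nuclear exosome pathway that clears polyadenylated RNA, read 7.98, 7.77 and 8.07 with LOC550643 siRNA, 8.13, 7.98 and 8.10 with Dcp2, 7.98, 8.46 and 8.44 with DcpS, 7.74, 7.47 and 7.73 with GAPDH, and 7.74, 8.02 and 8.20 with the non-silencing siRNA. The DcpS arrays were all above the GAPDH siRNA arrays, and the non-silencing arrays lay between, overlapping those with DcpS siRNA. RBM27 was 0.65 higher with DcpS than with GAPDH siRNA (SE 0.14, limma adjusted p = 0.0112), while its changes against the non-silencing siRNA were 0.31 with DcpS and -0.34 with GAPDH siRNA (limma adjusted p = 0.293 and 0.297). The difference was lost without DcpS replicate 2 or 3 or GAPDH replicate 2 (adjusted p 0.0509 to 0.0570). CD68 and VIM were called in this comparison as well, in the other direction, at -1.31 and -0.59.

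RBM12B read 7.55, 7.28 and 7.34 with LOC550643 siRNA, 6.94, 7.34 and 7.18 with Dcp2, 6.57, 6.57 and 6.99 with DcpS, 6.54, 6.74 and 6.82 with GAPDH, and 6.52, 7.08 and 7.22 with the non-silencing siRNA. The LOC550643 siRNA arrays lay above the DcpS, GAPDH and non-silencing arrays. It was 0.68 higher with LOC550643 than with DcpS siRNA and 0.69 higher than with GAPDH siRNA (limma adjusted p = 0.0254 and 0.0298), and its change of 0.45 against the non-silencing siRNA (95% interval 0.09 to 0.81) was not called. Both calls were lost in 4 or 5 of the 15 fits without 1 array, LOC550643 replicates 1 and 3 among them (adjusted p 0.0567 to 0.138). Its other probe set read near 3.2 in all groups, and with the mean of both probe sets neither difference was called. RBM26, a paralogue of RBM27, and RBM41, linked to the minor spliceosome, were named after their values were seen. RBM26 was higher with LOC550643 (8.84, 8.86 and 8.92) than with DcpS siRNA (8.39, 8.37 and 8.79), by 0.36 (limma adjusted p = 0.0462). RBM41 was higher with LOC550643 (7.68, 7.39 and 7.34) than with DcpS siRNA (7.01, 6.99 and 7.15), by 0.42 (limma adjusted p = 0.0446). Groups did not overlap in either, but the calls were lost without any of 14 and 11 of the 15 arrays, with adjusted p up to 0.174 and 0.198, and after quantile normalization (0.0613 and 0.0638). The RBM41 call was lost after centring on array medians too (0.0527).

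**Figure D4:**
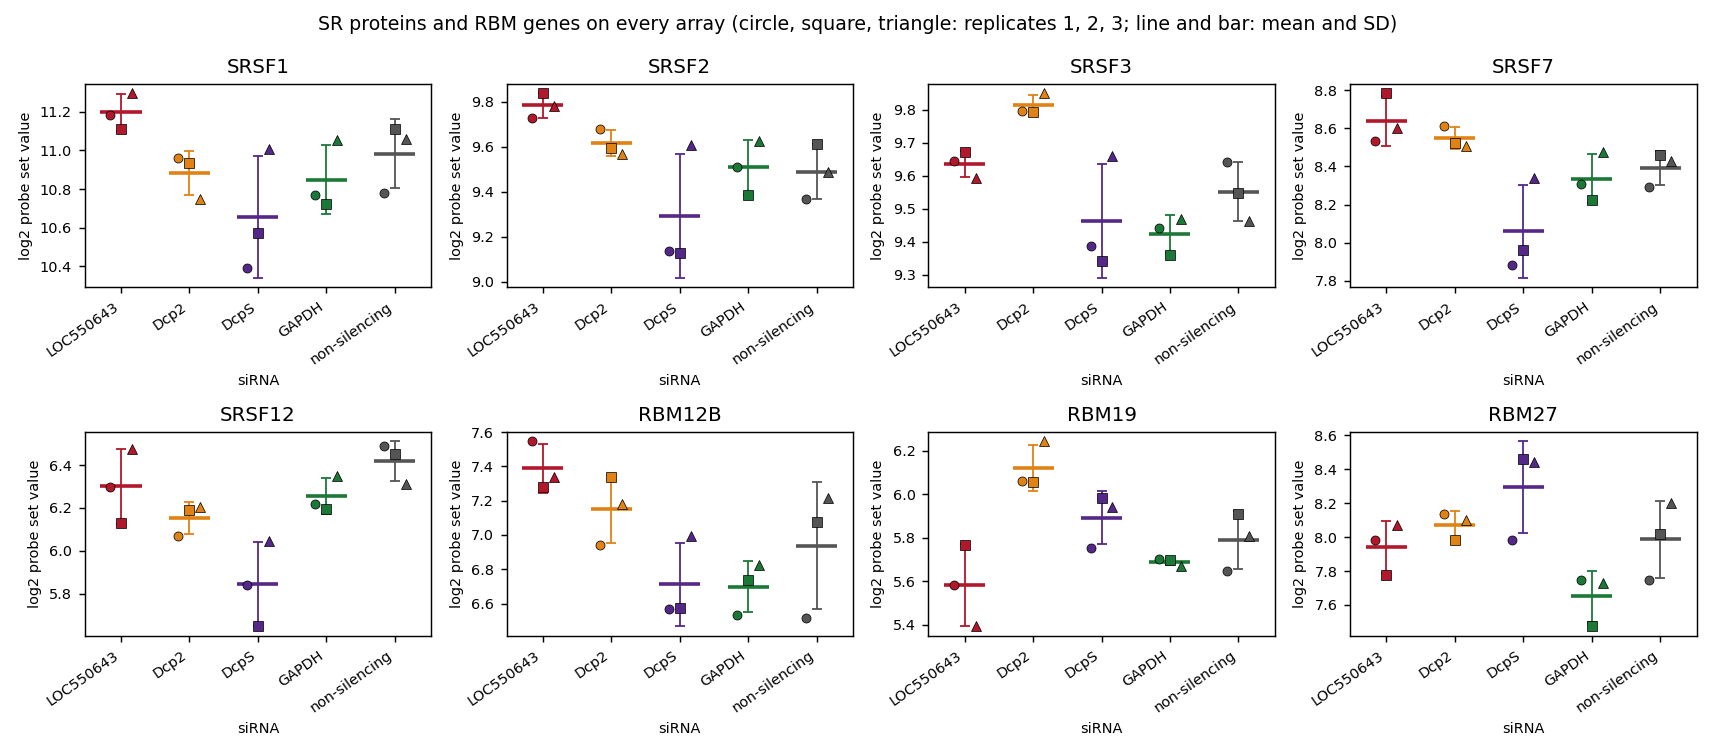
Log2 probe set value (vertical axes) of 5 SR proteins and 3 RBM genes on each of the 15 arrays, by siRNA, with the 4 targeting siRNAs left of the non-silencing siRNA; circles, squares and triangles are replicates 1, 2 and 3, lines are means and bars SD. The DcpS siRNA mean is the lowest for SRSF1 (10.66), SRSF2 (9.29), SRSF7 (8.06) and SRSF12 (5.84), and in each of the first 3 the third DcpS array stands above the other pair.

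No HNRNP gene passed the F test, which 12.2% of all genes passed. In the direct comparisons 1 of 21 was called, whereas 15.3% of all genes were called in at least 1 of the 6. That call was between LOC550643 and GAPDH siRNA (4.76% of the family, beside 4.08% of all genes). HNRNPA0, which binds AU-rich elements in mRNA and was named after its values were seen, read 9.25, 9.07 and 9.32 with LOC550643 siRNA, against 8.76, 8.97 and 8.77 with GAPDH siRNA. The groups did not overlap, and the difference of 0.38 (limma adjusted p = 0.0383) was lost without any of 7 arrays (up to 0.143) and after quantile normalization (0.0553). HNRNPM, a splicing factor also chosen after its values were seen, had the largest lower values of the family. It read 9.86, 9.38 and 8.99 with LOC550643 siRNA, 8.75, 8.96 and 8.99 with Dcp2, 9.10, 8.57 and 8.73 with DcpS, 8.67, 9.04 and 8.51 with GAPDH, and 9.53, 9.46 and 9.13 with the non-silencing siRNA. All 9 arrays of the last 3 targeting siRNAs lay below the 3 non-silencing arrays, whereas LOC550643 siRNA arrays spanned both. The changes were 0.04 (95% interval -0.38 to 0.46), -0.47 (-0.89 to -0.05), -0.57 (-0.99 to -0.15) and -0.63 (-1.05 to -0.21) with LOC550643, Dcp2, DcpS and GAPDH siRNA, and none was called (limma adjusted p = 0.965, 0.245, 0.139 and 0.135).

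HNRNPC, HNRNPA1L2 and RBM14 were also chosen after their values were seen. HNRNPC, which binds uridine tracts, had the largest positive change with Dcp2 siRNA. It read 8.15, 8.14 and 7.84 with Dcp2 siRNA, against 7.24, 7.42 and 7.48 with the non-silencing siRNA, without overlap, and the change of 0.66 (95% interval 0.25 to 1.08) was not called (limma adjusted p = 0.0923). RBM14, a paraspeckle protein, read 8.39, 8.33 and 8.31 with Dcp2 siRNA, against 7.68, 8.05 and 8.0029 with the non-silencing siRNA, again without overlap, and its change of 0.43 (95% interval 0.16 to 0.69) was not called (limma adjusted p = 0.0854). HNRNPA1L2 had the largest change of all 73 with LOC550643 siRNA, 0.79 (95% interval 0.20 to 1.38, limma adjusted p = 0.207). It also had the largest spread within groups of the 73 (SD 0.41). HNRNPA1L2 is a near-identical copy of HNRNPA1, as HNRNPCL1 and HNRNPCL2 are of HNRNPC, and RBM4 and RBM4B are close paralogues, so probes may not separate these genes. Probe set means in the HNRNP family ran from 2.42 for HNRNPCL1 to 11.02 for HNRNPUL1, in the RBM family from 2.82 for RBM4 to 9.62 for RBM12, in the SR proteins from 6.19 for SRSF12 to 10.91 for SRSF1, and in the kinases from 5.85 for CLK4 to 9.07 for CLK3. Probe affinities differ, so these means do not rank the genes by abundance. The means of HNRNPCL1, HNRNPCL2, RBM4, RBM44 and RBM46 lay below 4.04, the median of all probe sets.

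Array by array, a large share of the splicing regulators moved together within groups. To describe this, an axis score was computed for each array as the first principal component of the deviations from the group means over the 14811 named genes that are not splicing regulators. It held 24.6% of the variation within groups, and the next component 12.8%. The score was -6.56, -3.86 and 10.4 for the 3 LOC550643 siRNA arrays, 3.17, 0.313 and -3.49 for Dcp2, -13.8, 6.69 and 7.11 for DcpS, -0.733, -11.3 and 12.04 for GAPDH, and -14.5, 4.76 and 9.69 for the non-silencing siRNA. The first DcpS, first non-silencing and second GAPDH arrays stood lowest in their groups, and the third LOC550643 array and the third GAPDH array highest. Its sign was set so that JUN was positive. The labels give no batch that these arrays share, so what set them apart was not tested. The score sums to 0 in each group, so it moves no difference of group means.

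CLK1, CLK3 and CLK4 and CCNL1 rose along this axis. Their slopes, in log2 units per SD of the score in a limma fit that also held the 5 group means, were 0.30 for CLK1, 0.14 for CLK3, 0.25 for CLK4 and 0.31 for CCNL1 (limma adjusted p = 0.00118, 0.00530, 0.00419 and 0.000667). CLK2 and CCNL2 had slopes of 0.07 and 0.01 and were not called (limma adjusted p = 0.255 and 0.908). With the replicate number added to the fit as a block, CLK1 and CCNL1 kept a called slope (limma adjusted p = 0.0466 and 0.0231), and CLK3 and CLK4 did not (0.0863 and 0.123). CCNL1 and CLK1 were also among the members with the largest spread within groups, at SD 0.40 each. In the 73 genes as a whole this spread was like that of all genes, with a median SD of 0.146 against 0.147.

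In all, 18 of 73 members were called with a positive slope (24.7%), where 4.44% of all genes were, and 1 with a negative slope, where 5.43% were. A positive slope, called or not, was found for 60 of 73 members and for 7084 of all 14884 genes. With the replicate block 4 of 73 members (5.48%) had a called slope, beside 2.17% of all genes. They were CLK1, CCNL1, RBM15 and RBM33. The named genes that are not members helped to define the score, and the members did not. Beside the kinases and CCNL1, the 18 held, named after their values were seen, SRSF1 (0.13), 5 HNRNP genes and 8 RBM genes. HNRNPA1, a splicing repressor, had a slope of 0.28, HNRNPH1, which binds runs of G, 0.17, and HNRNPU 0.11. RBM15, a subunit of the m6A writer complex, had 0.26, RBM39, a U2AF-related factor, 0.19, RBM25 0.17, RBM33 0.17 and RBM22, a spliceosome subunit, 0.14. HNRNPM was the 1 member that fell along the axis, with a slope of -0.20 (limma adjusted p = 0.00642). Without DcpS replicate 1 the count of 19 called was 11 and without non-silencing replicate 1 it was 12. It ran up to 22, without DcpS replicate 2. The counts over all genes in these fits are not given here.

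Counts of members above their group mean followed the axis score only in part. Outside Dcp2 siRNA, the array with the highest score in each group also had the most members above the mean. DcpS replicates 2 and 3, however, had close scores of 6.69 and 7.11 but 31 and 59 members above. With LOC550643 siRNA, replicate 1 had the lowest score (-6.56) and 31 members above, whereas replicate 2 (-3.86) had 14. On the first non-silencing array 13 of 73 members were above their group mean, against 53 and 54 on the other pair, and on the first DcpS array 15 were, against 31 and 59. On the third LOC550643 array 56 were, against 31 and 14 on the first and second. The members had their group's lowest value on the first non-silencing array in 67.1% of cases, and all genes in 36.4%. They had their group's highest value on the third DcpS array in 69.9% of cases, and all genes in 30.6%. Dcp2 siRNA arrays were the most even, with 40, 44 and 31 of 73 above the group mean.

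**Figure D5:**
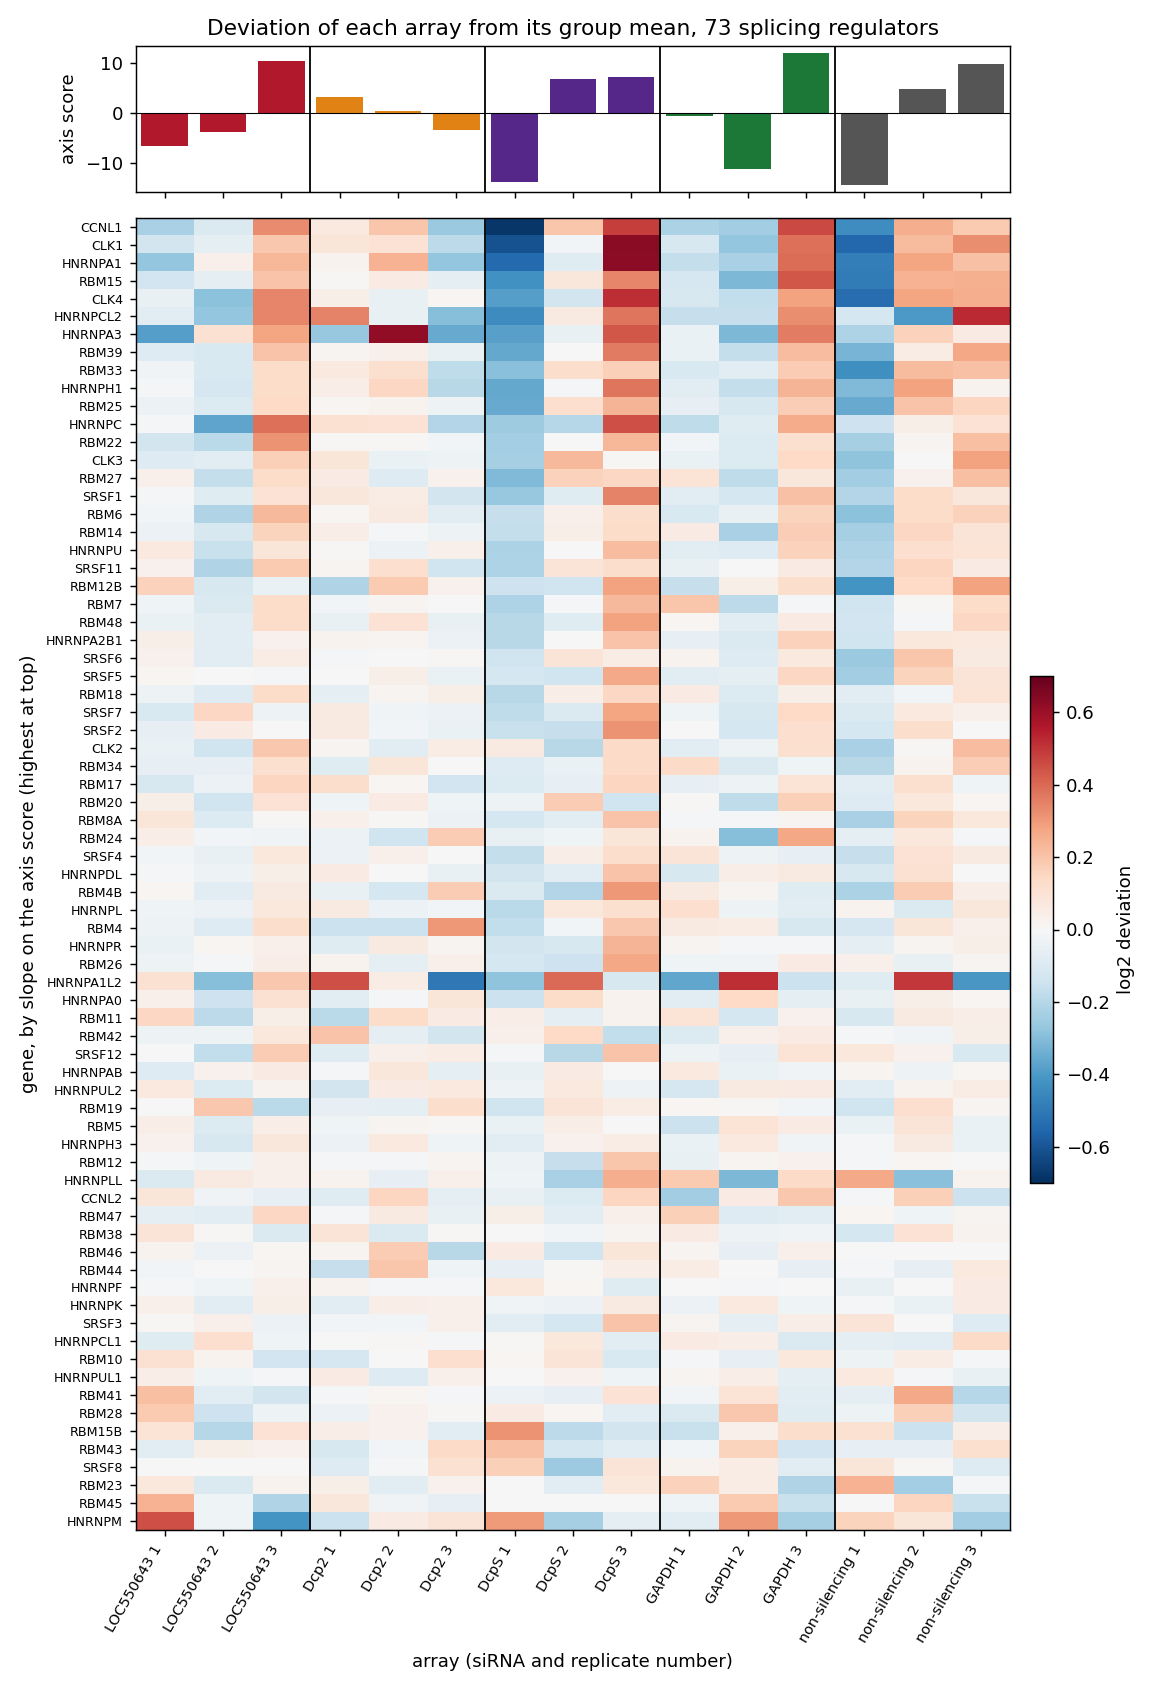
Deviation of each splicing regulator (rows, ordered by slope on the axis score) from its group mean on each of the 15 arrays (columns), red above and blue below, with the axis score of the arrays as bars on top. The first DcpS and first non-silencing columns are mostly blue and the third DcpS column mostly red, and HNRNPM at the bottom runs the other way.

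With the axis score as a covariate, standard errors shrank and more members were called. Against the non-silencing siRNA the counts were 2 with LOC550643, 8 with Dcp2, 6 with DcpS siRNA, and 3 with GAPDH siRNA, or 2.74%, 10.96%, 8.22% and 4.11% of the members, beside 4.17%, 7.83%, 7.05% and 4.35% of all genes. CLK3 was then called higher with Dcp2, DcpS and GAPDH siRNA (limma adjusted p = 0.00315, 0.0113 and 0.0134), and HNRNPM was called lower with the same 3 (0.0321, 0.0117 and 0.00933). CCNL1 was called higher with Dcp2 siRNA (0.0224), as were HNRNPC (0.0177) and RBM14 (0.00275). RBM15 and RBM25 were the 2 called with LOC550643 siRNA, at 0.40 and 0.36 (0.0239 and 0.0287). The covariate was taken from the residuals of the same arrays, so these p-values are smaller than an independent measure of the arrays would give.

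The rest of the splicing machinery was compared by lists. Of 45 core spliceosome genes, 35 were measured. Against the non-silencing siRNA limma called 0, 2, 1 and 2 of them with LOC550643, Dcp2, DcpS and GAPDH siRNA, all higher. These were 0%, 5.71%, 2.86% and 5.71% of the 35, beside 1.57%, 1.98%, 3.61% and 2% of all genes. At an unadjusted p under 0.05 there were 9, 11, 2 and 9. These were 25.7%, 31.4%, 5.71% and 25.7%, beside 12.5%, 16.3%, 16.1% and 13.6% of all genes. PHF5A, a subunit of the SF3b complex that reads the branch point, averaged 7.72 ± 0.09, 7.52 ± 0.10 and 7.60 ± 0.11 with siRNA against Dcp2, DcpS and GAPDH, compared with 7.07 ± 0.10 among the non-silencing arrays (SD, n = 3 each). It rose by 0.65, 0.45 and 0.53 (limma adjusted p = 0.00291, 0.00941 and 0.00536). PRPF19, the ubiquitin ligase of the Prp19 complex, rose by 0.32 with Dcp2 siRNA, and SNRPD3, an Sm core protein, by 0.34 with GAPDH siRNA (0.0382 in both). With Dcp2 siRNA 27 of the 35 changes were positive, with a median of 0.14.

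Among 33 measured of 46 other splicing regulators, 0, 1, 2 and 1 were called with LOC550643, Dcp2, DcpS and GAPDH siRNA (unadjusted, 5, 8, 8 and 4). The called shares were 0%, 3.03%, 6.06% and 3.03%, beside 1.57%, 1.98%, 3.61% and 2% of all genes. Unadjusted, the shares were 15.2%, 24.2%, 24.2% and 12.1%, beside 12.5%, 16.3%, 16.1% and 13.6% of all genes. TARDBP, which encodes TDP-43, averaged 7.05 ± 0.38 with DcpS siRNA and 8.17 ± 0.15 among the non-silencing arrays (SD, n = 3 each). It fell by 1.11 (limma adjusted p = 0.00169), the largest change of any splicing gene examined against the non-silencing siRNA. MBNL2, a muscleblind protein, rose by 0.42 with both Dcp2 and DcpS siRNA (0.0430 and 0.0290), and MBNL3 fell by 0.71 with GAPDH siRNA (0.0138). Between LOC550643 and DcpS siRNA 4 of 33 were called (12.1%, beside 6.40% of all genes), all higher with LOC550643 siRNA. They were TARDBP (1.28), SFPQ (0.64), MBNL1 (0.56) and DDX17 (0.44), and 27 of the 33 were on the positive side with a median of 0.19. Against GAPDH siRNA, 5 of 33 (15.2%) were called higher with LOC550643 siRNA, where 4.08% of all genes were called in either direction. The largest were SFPQ (0.70), MBNL1 (0.61), SON (0.53) and MBNL2 (0.48). Exon junction complex genes were measured for 4 of 9. None was called with any siRNA against the non-silencing siRNA, with 0, 0, 0 and 1 at an unadjusted p under 0.05, and CASC3 was 0.34 lower with DcpS than with GAPDH siRNA (change -0.34, limma adjusted p = 0.0104).

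Short-lived transcripts were listed because actinomycin D leaves them to decay. Of 13 measured of 16, 6 (46.2%) rose with Dcp2 siRNA, where 1.98% of all genes were called in either direction. Among the 6, JUN rose by 1.42, ATF3 by 1.41, DUSP1 by 1.25 and KLF6 by 0.98. With LOC550643 siRNA 0 were called, beside 1.57% of all genes. At an unadjusted p under 0.05 there were 4 (30.8%), beside 12.5% of all genes. JUND rose by 0.75 with DcpS siRNA and MYC fell by 0.68 with GAPDH siRNA. On the axis score 8 of the 13 were called with a positive slope, as were 7 of 35 core spliceosome genes, 7 of 33 other regulators and 0 of 4 exon junction genes, where 4.44% of all genes were. These list genes helped to define the score and JUN set its sign, so their counts are no test and are not comparable with that of the members.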

How the data were processed

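The deposited values are log2 probe set summaries, with the base inferred from their range. Per the submitters' processing notes they were made with RMA (background correction, quantile normalization and summarization) and oligo. Versions, the probe set definition and the build are not given in the sources used here. Quantile normalization hides a shift common to all transcripts. Groups and replicate numbers came from the sample titles. Whether the 3 samples of a group were separate cultures is not said in the labels, and a p-value therefore reflects the spread between samples that may be technical replicates. Detection calls were not used, and precision is limited by the number of arrays.

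Of 53617 probe sets, 16098 had 1 gene symbol, 0 had several and 37519 had none in the table used here, which left 14884 genes after the highest-mean probe set was taken for each. Members and gene lists were chosen with earlier results of these data known. All 15 arrays entered 1 fit in limma 3.58.1 (R 4.3.3) with a mean per group and 10 residual degrees of freedom. P-values were two-sided and adjusted by the Benjamini-Hochberg method over all 14884 genes within a comparison. Genes at an adjusted p under 0.05 are those called, and intervals are 95% intervals from the same fit. The naming rule took the CLK and CCNL genes, members called against the non-silencing siRNA or in the F test, the highest and lowest level per family, called genes of the lists, and the targeted genes. Genes outside it are marked in the text as named after their values were seen. The slope on the axis score, and a replicate block for the DcpS and non-silencing arrays alone, were added after seeing the data. That block was used because all 3 same-numbered pairs of these groups had correlated deviations over 0.1, which was not so for any other comparison.

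On simulated data for LOC550643 against the non-silencing siRNA over 14884 genes, 50% of genes shifted by 0.5 and 93% of genes shifted by 1 were recovered, with 5.92% false calls. The simulated noise was independent between genes and arrays, whereas the real arrays shared variation within groups. These rates therefore need not hold for the real arrays. Alternatives were a replicate block, quantile normalization, centring on array medians, removal of dim genes, the mean of probe sets, the axis score as covariate, eBayes with trend and robust, only the arrays compared, and leaving out each array.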

Additional observations from a re-analysis of the deposited data

How the results depend on the processing

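The direction of the called changes held in every alternative run, and the number of called splicing regulators did not. With LOC550643 against the non-silencing siRNA it was 1 after a filter on dim genes, 2 with the axis score and 1 with eBayes with trend and robust, against 0. With Dcp2 it was 3, 8 and 1 under the same settings and 0 to 1 when 1 array was left out. With DcpS it was 4 after quantile normalization, 4 after the dim filter, 6 with the axis score, 3 with trend and robust, 0 with only the arrays compared, 3 with a replicate block for the DcpS and non-silencing arrays alone and 1 to 3 when 1 array was left out, against 1. With GAPDH it was 3 with the axis score and 0 otherwise. The F test gave 13 after the dim filter, 20 with the axis score, 10 with trend and robust and 1 to 8 when 1 array was left out, against 6. Any direct comparison of targeting siRNAs gave 21 after the dim filter, 26 with the axis score and 3 to 13 when 1 array was left out, against 12. LOC550643 against DcpS siRNA gave 5 after quantile normalization, 13 with the axis score and 1 to 8 when 1 array was left out, against 8. The share of all genes called moved as well. With the axis score it was 10.4% for LOC550643 against DcpS siRNA, in place of 6.40%. Against the non-silencing siRNA it was then 4.17%, 7.83%, 7.05% and 4.35% with LOC550643, Dcp2, DcpS and GAPDH, in place of 1.57%, 1.98%, 3.61% and 2%. For most other settings it is not given here, so the counts describe the settings and not the members as a set. The dim filter tests fewer genes, and the axis score was taken from the residuals of the same arrays. The cause of the shifts in these counts was not tested. SRSF7 between LOC550643 and DcpS siRNA was called in 22 of 22 settings, and SRSF12 with DcpS siRNA in 23 of 24, the exception being the fit to 6 arrays (limma adjusted p = 0.0821). CLK2, RBM26 and RBM41 between LOC550643 and DcpS siRNA were called in 10, 7 and 8 of 22. Of the uncalled changes, 72 were recomputed, those of 18 named members against the non-silencing siRNA and that of SRSF4 between LOC550643 and DcpS siRNA, and 16 of 1668 refits called one.

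Of 30 same-numbered pairs, 9 had correlated deviations over 0.1 (range -0.198 to 0.394), all 3 of the DcpS and non-silencing arrays among them and not all 3 of any other comparison. With a replicate block over all groups the counts against the non-silencing siRNA were 0, 0, 1 and 0, the F test gave 6, and the slope on the axis score was called for 4 members in place of 19. Leaving out 1 array gave 11 to 22 for that slope.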
